A study of Mus musculus with 6 samples.

Results

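Semaphorins, plexins and neuropilins were compared in infarct tissue of mice treated with LGK-974 and with DMSO. The members were chosen by gene symbol (Sema3 to Sema7, Plxna to Plxnd, Nrp1 and Nrp2), which gave 31 protein-coding genes of the 35968 genes in the deposited files: 20 semaphorins, 9 plexins and 2 neuropilins. The same symbols also match 3 antisense genes of the annotation (Plxna4os1, Plxna4os2 and Plxna4os3), which were not measured here. All 31 members passed the filter on low counts. All mice were C57BL/6 (C57BL6 in the labels), female per the study's methods and 12 weeks old per the labels, and had ischemia/reperfusion injury of the heart, in which a coronary artery is tied and reopened. In 1 group, 3 mice were given the inhibitor LGK-974 by mouth each day in citrate buffer, and in the other, 3 mice were given its solvent DMSO in citrate buffer. LGK-974 blocks Porcupine, the enzyme that lipid-modifies Wnt proteins before they are secreted. The infarcted area was taken after 48 h, and 1 library was made from each heart. The tissue is a mixture of cells, and the question was whether blocking Wnt secretion changes its transcriptome.

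Semaphorins are secreted or membrane-bound cues that steer growing axons, blood vessels and migrating immune cells. Plexins are their receptors: a ligand on the outside opens a GTPase-activating domain on the inside, which acts on small Ras-family GTPases and loosens the adhesion of the cell to the matrix. Class 3 semaphorins are secreted, and most of them need a neuropilin as the ligand-binding co-receptor beside the plexin. The other vertebrate classes are anchored to the membrane and bind plexins directly. Neuropilins also bind VEGF family growth factors. In the heart, Sema3a is known for the patterning of sympathetic nerves, Sema3c with Plxna2 and Plxnd1 for the development of the outflow tract, and Nrp1 for the development of vessels.

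Depth was 46208470 to 80398211 estimated counts in the LGK-974 libraries and 41579787 to 48517100 in the DMSO libraries, with 28.2 to 53.7% of them on mitochondrial genes. DMSO replicate 1 stood apart from the other libraries: its correlations of log2 CPM with them were 0.841 to 0.925, against 0.923 to 0.966 among the other 5 libraries. It also had the most counts on 1778 olfactory, vomeronasal and taste receptor genes, a set taken here as mostly silent in heart tissue. Per kb of exon, their median count was 28.2 there, 9.69 and 9.0 in DMSO replicate 2 and LGK-974 replicate 1, and between 0.784 and 2.63 in the remaining 3 libraries. Cardiomyocyte markers were abundant in every library, at 39972 to 62185 CPM summed over 9 genes, where CPM means counts scaled to the library size with TMM. By edgeR's quasi-likelihood test over 20076 genes, 0 (0%) were under an adjusted p-value of 0.05, while 13.4% were under 0.05 without adjustment.

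Of the 31 members, 0 had an adjusted p-value under 0.05 by edgeR, DESeq2 or limma-voom. At an unadjusted p-value under 0.05 by edgeR there were 5 members, or 16.1%, beside 13.4% of all genes tested. With LGK-974, 3 of these were higher (Nrp2, Plxnc1 and Sema3b; 6.26% of all genes tested) and 2 were lower (Sema5a and Plxna2; 7.18%). The members under this p-value numbered 2 without LGK-974 replicate 1, 1 without LGK-974 replicate 3 and 7 without DMSO replicate 1. In the same fits, 1530 of 18760, 821 of 19694 and 2044 of 18533 genes tested were under this p-value. The groups did not overlap in 9 members, beside 18% of all genes tested: the treated mice were all above the controls in 4 (10.7% of all genes) and all below them in 5 (7.26%). The median log2 fold change of the members was 0.04, beside −0.13 over all genes tested. Of the 31 members 17 were positive, beside 40.5% of all genes tested. Among the semaphorins 9 of 20 were positive and the median was −0.14, and among the plexins 6 of 9 were positive and the median was 0.34. The summed level of all members was 779 to 956 CPM with LGK-974 and 615 to 816 CPM with DMSO, so the groups overlapped.

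**Figure D1:**
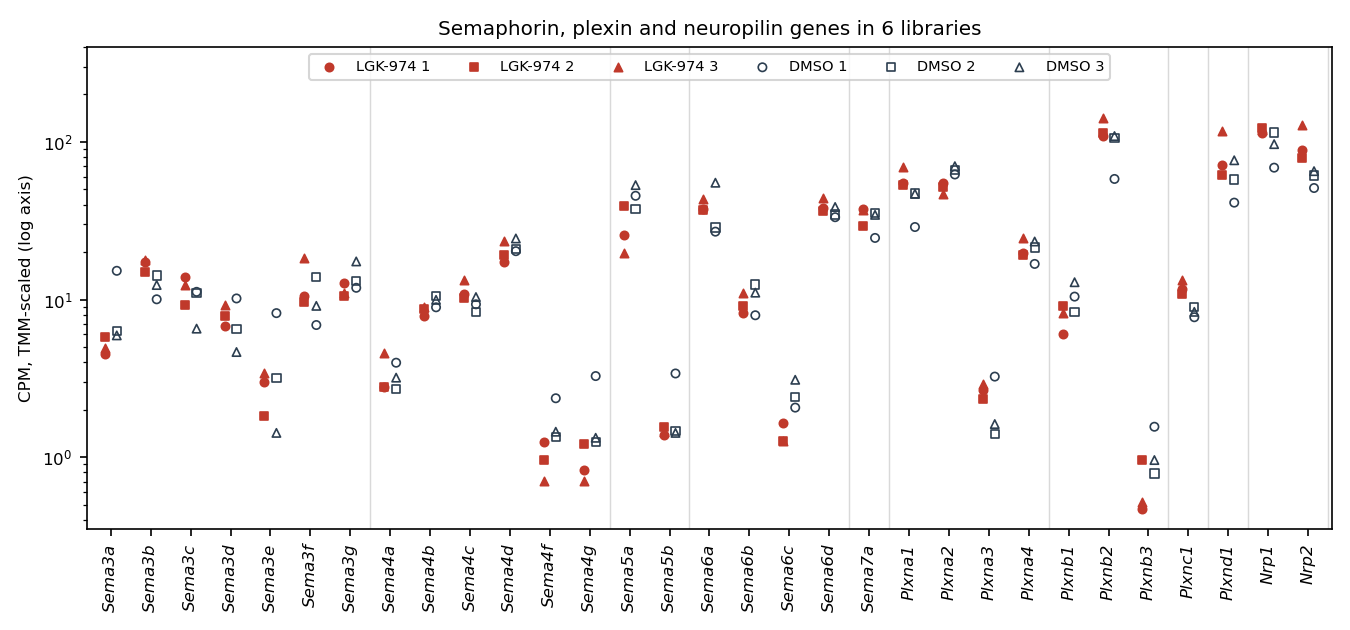
CPM after TMM scaling (log axis) of each of the 31 members in the 3 LGK-974 libraries (filled) and the 3 DMSO libraries (open), ordered by subclass. The groups overlap in 22 members, and DMSO replicate 1 is the highest library in 8 members and the lowest in 13.

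Members of low expression were read beside the background of each library. For this, the count that a silent receptor gene of the same exon length would have was set beside the count of the member. In DMSO replicate 1, that level came to over 50% of the member's own count in 14 of the 31 members, and 6 members (Plxna3, Plxnb3, Sema4f, Sema4g, Sema5b and Sema6c) lay below it. In DMSO replicate 2 it came to over 50% in 6 members, of which Plxna3, Plxnb3 and Sema4g lay below it. In LGK-974 replicate 1 it came to over 50% in 3, of which Plxnb3 and Sema4g lay below it. In the other 3 libraries it came to over 50% in 0. The counts behind the values ranged from 33 to 9650 per member and library. Whether the background adds to the counts of the members was not tested.

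**Figure D2:**
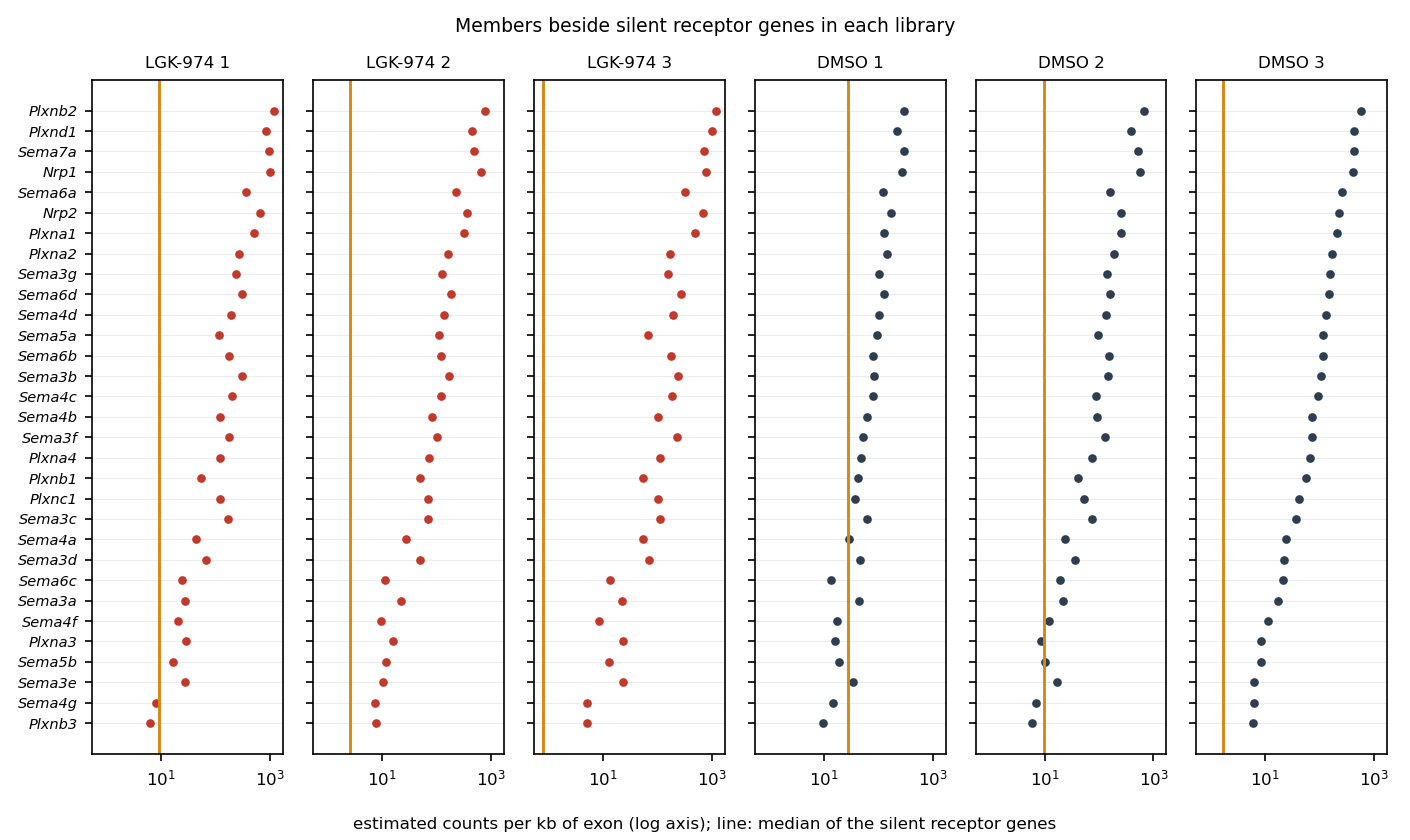
Estimated counts per kb of exon (log axis) of each member in each library, with the median of 1778 silent receptor genes in that library as a line. In DMSO replicate 1 the line stands at 28.2 and 6 members lie left of it, whereas in LGK-974 replicate 3 it stands at 0.784 and all members lie right of it.

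The summed level of both neuropilins was 201 to 246 CPM with LGK-974 and 120 to 176 CPM with DMSO, with no overlap, and Nrp2 had the smallest p-value of all members. Nrp2, co-receptor of Sema3f and of VEGF-C, lies on chromosome 1 of GRCm38 from 62703285 to 62818695 on the plus strand. Its expression was 89.4, 79.5 and 128 CPM in LGK-974 replicates 1, 2 and 3, and 50.98, 61.2 and 65.2 CPM in DMSO replicates 1, 2 and 3. Every LGK-974 mouse was above every DMSO mouse. The means for Nrp2 were 98.8 ± 25.3 and 59.1 ± 7.34 CPM (SD, n = 3 each), and the log2 fold change came to 0.74 ± 0.218 (SE), with an adjusted p-value of 0.367 from edgeR and of 0.0736 from DESeq2. Nrp2 was the only member with an unadjusted p-value under 0.05 in the main test and in all 16 alternatives, and its log2 fold change stayed between 0.58 and 0.93 with each mouse left out in turn. Nrp1, co-receptor of Sema3a and of VEGF-A, was expressed at 114, 122 and 119 CPM with LGK-974 and at 68.6, 115 and 96.8 CPM with DMSO. The LGK-974 mice were alike and the DMSO mice spread widely, with DMSO replicate 1 lowest and DMSO replicate 2 within the range of the treated mice. The log2 fold change was 0.34 ± 0.211 (SE, edgeR's adjusted p = 0.444), and 0.18 without DMSO replicate 1.

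The start of Nrp2 is shown because Nrp2 led the family and because LGK-974 acts on Wnt, whose canonical arm ends at TCF/LEF factors. RefSeq promoter windows of 250 bases before to 50 after the start (GRCm38.p6) were found for 26 of the 31 members, 37 windows in all. Both strands were searched for 4 motifs. The letters of the TCF/LEF motif are CTTTGAT, and those of the GC box, which binds Sp1-like factors, are GGGCGG. The core motif of the myeloid factor PU.1 is spelled GAGGAA, and the TATA box is spelled TATAAA. The letters CTTTGAT stood in 1 of the 37 windows, that of Nrp2, and in 3.73% of 32851 windows of all genes. The GC box letters stood in 27 of the 37 windows and in 35.7% of all windows, the PU.1 core in 12 of the 37 and in 28.3% of all, and the TATA box in 0 of the 37 and in 13.6% of all. In the sequences below, printed 5′ to 3′ on the gene's strand, capitals mark all matches, and matches of the GC box can overlap each other. Nrp2 lies at chr1:62703067-62703366 on the plus strand, Plxnc1 at chr10:94944796-94945095 on the minus strand and Sema5a at chr15:32244563-32244862 on the plus strand. Plxnc1 had the smallest p-value after Nrp2 among members higher with LGK-974, and Sema5a the smallest among those lower.
Nrp2: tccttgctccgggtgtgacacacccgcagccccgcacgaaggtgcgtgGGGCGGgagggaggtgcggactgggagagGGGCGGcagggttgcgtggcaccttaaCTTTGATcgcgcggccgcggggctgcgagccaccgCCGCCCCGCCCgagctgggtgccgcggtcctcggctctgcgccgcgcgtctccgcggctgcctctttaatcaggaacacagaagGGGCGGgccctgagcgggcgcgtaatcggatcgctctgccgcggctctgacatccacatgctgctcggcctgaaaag
Plxnc1: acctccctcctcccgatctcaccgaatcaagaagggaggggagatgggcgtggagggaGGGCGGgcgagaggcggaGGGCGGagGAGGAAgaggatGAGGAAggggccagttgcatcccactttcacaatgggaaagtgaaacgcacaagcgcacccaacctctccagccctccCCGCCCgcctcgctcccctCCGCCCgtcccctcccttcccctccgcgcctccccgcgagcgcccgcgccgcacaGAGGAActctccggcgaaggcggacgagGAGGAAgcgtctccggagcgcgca
Sema5a: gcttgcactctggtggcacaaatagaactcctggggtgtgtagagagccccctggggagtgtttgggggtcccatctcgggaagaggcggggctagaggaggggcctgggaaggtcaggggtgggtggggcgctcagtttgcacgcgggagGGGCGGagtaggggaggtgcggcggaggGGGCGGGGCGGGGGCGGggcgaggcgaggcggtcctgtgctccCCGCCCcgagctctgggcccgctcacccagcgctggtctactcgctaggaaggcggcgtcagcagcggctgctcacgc
The window of Nrp2 held 1 TCF/LEF match and 5 GC boxes, that of Plxnc1 4 GC boxes and 4 PU.1 cores, and that of Sema5a 5 GC boxes. A match of letters is a description of the sequence and not a site of binding.

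Nrp2 RNA comes in forms that differ near the end of the coding sequence, and these were read from the authors' TPM values per transcript. The a and b forms have different last exons, so that the membrane-spanning and cytoplasmic ends of the protein differ. An exon that ends at 62786316 carries 15 optional bases (5 codons), and an exon of 51 bases (17 codons) can follow in the a forms. These stretches are shown because the shares below rest on them, with the optional 15 bases in capitals. They lie on the plus strand at chr1:62786281-62786316, chr1:62812534-62812584, chr1:62815333-62815392 (a end) and chr1:62795709-62795768 (b end).
Exon with the optional bases: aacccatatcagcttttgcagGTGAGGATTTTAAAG
Optional exon: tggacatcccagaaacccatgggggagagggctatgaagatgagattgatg
Start of the last exon of Nrp2a: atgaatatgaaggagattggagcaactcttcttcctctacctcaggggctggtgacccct
Start of the last exon of Nrp2b: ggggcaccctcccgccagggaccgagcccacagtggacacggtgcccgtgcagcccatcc
Of the TPM on the 6 coding transcripts, the b end held 35.4, 35.6 and 37.9% with LGK-974 and 35.8, 33.0 and 37.5% with DMSO. This share was steady across all 6 libraries, with means of 36.3 ± 1.37% and 35.4 ± 2.27% (SD, n = 3 each; exact two-sided permutation test, p = 0.7, where 0.1 is the smallest p-value that 3 against 3 allows). The 15-base insert was much less steady: its share was 53.7, 20.6 and 49.7% with LGK-974 and 45.5, 8.23 and 22.7% with DMSO, and the groups overlapped (p = 0.3, exact permutation test, two-sided). Among the a forms, the 51-base exon was in 29.1, 18.4 and 32.0% with LGK-974 and in 70.2, 32.5 and 22.2% with DMSO, where DMSO replicate 1 was far above the other libraries (exact permutation test, p = 0.4). Transcripts that differ by 15 bases share nearly all of their reads, so the division between them is an estimate of the program.

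**Figure D3:**
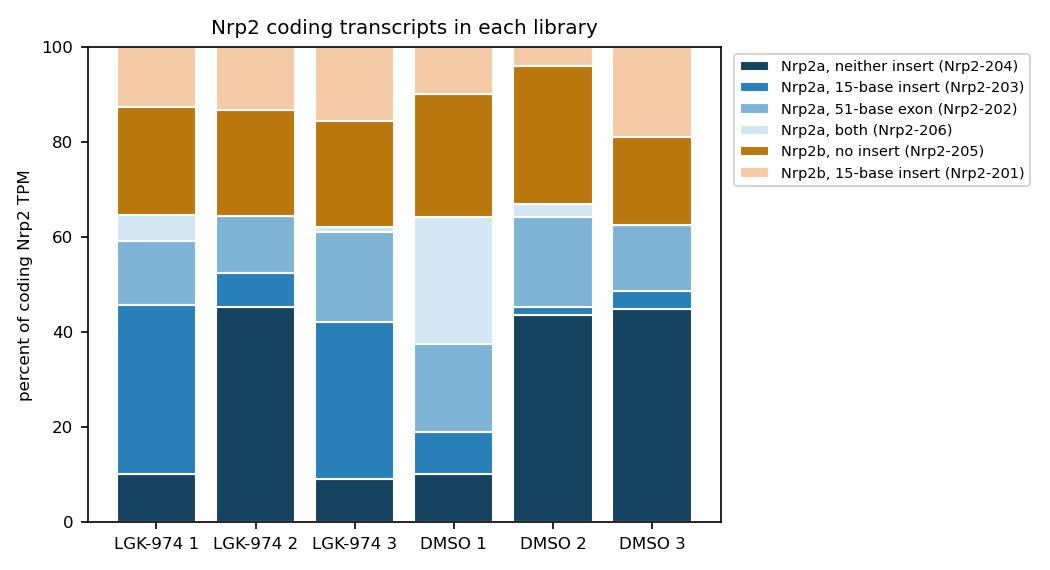
Percent of the TPM on the 6 coding Nrp2 transcripts in each library, stacked by form. The brown and peach parts (b end) take 33.0 to 37.9% in all libraries, while the blue parts (a forms) are divided differently from library to library without separating the groups.

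Of the plexins, the signaling receptors, 6 of 9 had positive log2 fold changes, whereas Plxna2 was lower in every treated mouse. Plxnc1, the receptor of Sema7a, lies on chromosome 10 from 94790866 to 94944835 on the minus strand. Its expression was 11.6, 10.8 and 13.3 CPM with LGK-974 and 7.72, 8.98 and 8.35 CPM with DMSO. The groups did not overlap, and the means were 11.9 ± 1.27 and 8.35 ± 0.631 CPM (SD, n = 3 each). The log2 fold change was 0.51 ± 0.173 (SE, edgeR's adjusted p = 0.367) and 0.48 without DMSO replicate 1. In that library, the level of silent genes of the same exon length was 76.8% of the Plxnc1 count, and with this level subtracted in each library the log2 fold change was 0.89 ± 0.41 (SE). On counts scaled from TPM it was 0.13, and in both of these settings Plxnc1 was no longer under an unadjusted p-value of 0.05.

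Plxnd1, the receptor of Sema3e on endothelial cells, was among the most abundant members, at 71.9, 61.3 and 117 CPM with LGK-974 and 41.2, 57.9 and 76.4 CPM with DMSO. Its groups overlapped, since DMSO replicate 3 was above LGK-974 replicates 1 and 2, and the log2 fold change was 0.51 ± 0.308 (SE, edgeR's adjusted p = 0.435). Without LGK-974 replicate 3 it was 0.25, without DMSO replicate 1 0.32, and without DMSO replicate 3 0.85. Plxnb2, the receptor of Sema4c, was at 109, 113 and 141 CPM with LGK-974 and at 58.2, 106 and 109 CPM with DMSO. DMSO replicates 2 and 3 were close to LGK-974 replicates 1 and 2, and without the low DMSO replicate 1 its log2 fold change went from 0.41 to 0.19. Plxnb1, the receptor of Sema4d, and Plxnb3, a receptor of Sema5a, had log2 fold changes of −0.44 and −0.77, with standard errors of 0.241 and 0.627. Without DMSO replicate 3 that of Plxnb1 was −0.15, and without DMSO replicate 1 that of Plxnb3 was −0.42.

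The class A plexins, partners of neuropilins in the class 3 receptor complex, went both ways. Plxna1 was at 54.6, 52.9 and 69.0 CPM with LGK-974 and at 28.8, 47.1 and 46.8 CPM with DMSO. All treated mice lay above all controls, by a log2 fold change of 0.52 ± 0.228 (SE, edgeR's adjusted p = 0.367), or 0.34 without DMSO replicate 1. Plxna2 was at 55.1, 51.4 and 46.8 CPM with LGK-974 and at 62.1, 66.0 and 70.1 CPM with DMSO. Here all treated mice lay below all controls, with means of 51.1 ± 4.16 and 66.1 ± 4.01 CPM (SD, n = 3 each). The gene lies on chromosome 1 from 194618218 to 194816869, and its log2 fold change was −0.37 ± 0.147 (SE, edgeR's adjusted p = 0.367). It was −0.40 without DMSO replicate 1, −0.24 without LGK-974 replicate 3 and −0.21 without DMSO replicate 3, and Plxna2 was not under an unadjusted p-value of 0.05 by DESeq2 or with a replicate block. In Plxna4, which binds Sema3a with Nrp1, the groups overlapped (log2 fold change 0.04 ± 0.18, SE). Plxna3, a receptor of Sema3f, was low throughout, at 1.41 to 3.24 CPM, with a log2 fold change of 0.34 that became 0.82 without DMSO replicate 1. Its count was below the level of silent genes in DMSO replicate 1 and also in DMSO replicate 2. With that level subtracted in each library, the log2 fold change of Plxna3 was 2.34 ± 1.73 (SE).

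**Figure D4:**
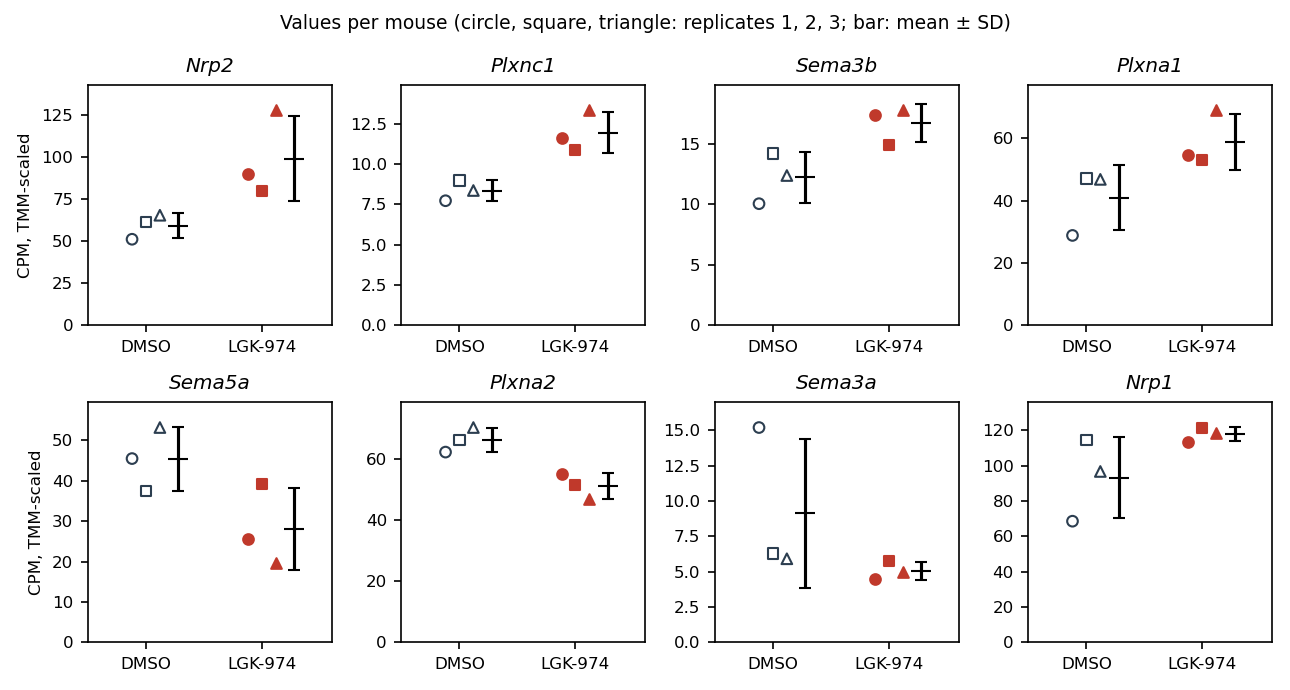
CPM after TMM scaling per mouse for 8 members under DMSO (open) and LGK-974 (filled), with the mean ± SD of 3 mice beside the points. In Nrp2, Plxnc1, Sema3b and Plxna1 the LGK-974 points lie above all DMSO points, in Plxna2 and Sema3a below, and in Sema5a and Nrp1 the groups overlap.

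Among the secreted class 3 semaphorins, the ligands of the neuropilin complexes, Sema3b was the member that was higher in every treated mouse. It lies on chromosome 9 from 107597674 to 107609229 on the minus strand and was expressed at 17.4, 14.9 and 17.7 CPM with LGK-974 and at 10.03, 14.2 and 12.4 CPM with DMSO. The gap between the groups was narrow, from 14.2 in DMSO replicate 2 to 14.9 in LGK-974 replicate 2. Its log2 fold change was 0.45 ± 0.182 (SE, edgeR's adjusted p = 0.367), and 0.35 without DMSO replicate 1. Sema3a, which repels sympathetic axons, was at 4.51, 5.75 and 4.95 CPM with LGK-974 and at 15.2, 6.29 and 5.92 CPM with DMSO. All treated mice lay below all controls, but the difference rested on DMSO replicate 1: the log2 fold change was −0.85 ± 0.381 (SE) with this library and −0.25 without it. The level of silent genes was 64.7% of the Sema3a count in DMSO replicate 1 and 44.2% in DMSO replicate 2. The other 5 class 3 genes overlapped between the groups. Sema3c, Sema3d and Sema3f had log2 fold changes of 0.31, 0.17 and 0.37, with standard errors of 0.263 to 0.336. These values rested on single libraries: Sema3d was at 0.54 without DMSO replicate 1 and at 0.06 without DMSO replicate 3, Sema3f at 0.085 without LGK-974 replicate 3, and Sema3c at 0.16 without LGK-974 replicate 1. Sema3g, a ligand expressed by arterial endothelium, was at 10.5 to 12.7 CPM with LGK-974 and at 11.9 to 17.4 CPM with DMSO, a log2 fold change of −0.32 ± 0.195 (SE) that was −0.027 without DMSO replicate 3. The log2 fold change of Sema3e, the ligand of Plxnd1, was −0.64 in the main test, but 0.27 once DMSO replicate 1 was left out.

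Class 4 semaphorins, membrane-bound ligands that act in part on immune cells, overlapped between the groups where they were well expressed. Sema4d, also known as CD100 and the ligand of Plxnb1, was at 17.4, 19.2 and 23.5 CPM with LGK-974 and at 20.3, 20.98 and 24.4 CPM with DMSO. Its groups overlapped, and the log2 fold change was −0.13 ± 0.168 (SE), or 0.066 without DMSO replicate 3. The values of Sema4b and Sema4c, the ligand of Plxnb2, were −0.21 and 0.29 on the same scale, with standard errors of 0.172 and 0.186. Sema4a, which acts on T cells, was at 2.71 to 4.56 CPM with a log2 fold change of 0.03 ± 0.329 (SE). Sema4f and Sema4g were the lowest of the class. Sema4f was at 1.25, 0.952 and 0.705 CPM with LGK-974 and at 2.36, 1.34 and 1.45 CPM with DMSO, and Sema4g was at 0.825, 1.21 and 0.705 CPM with LGK-974 and at 3.27, 1.24 and 1.33 CPM with DMSO. In both, all treated mice lay below all controls. Their log2 fold changes were −0.82 and −1.09 with all mice, −0.50 and −0.48 without DMSO replicate 1, and 0.41 and 0.50 with the level of silent genes subtracted, so their direction turned with this subtraction.

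Sema5a, a membrane protein with thrombospondin repeats that can attract or repel axons, was the semaphorin with the smallest p-value. The gene lies on chromosome 15 from 32244810 to 32696341 on the plus strand. Its expression was 25.5, 39.3 and 19.6 CPM with LGK-974 and 45.5, 37.5 and 53.2 CPM with DMSO. The groups overlapped, because LGK-974 replicate 2 lay above DMSO replicate 2. The means were 28.1 ± 10.1 and 45.4 ± 7.85 CPM (SD, n = 3 each). This difference was −0.69 ± 0.269 on the log2 scale (SE, edgeR's adjusted p = 0.367), which stayed between −0.95 and −0.43 with each mouse left out (lowest in size without LGK-974 replicate 3) and was −0.74 with the level of silent genes subtracted. Its relative Sema5b was at 1.39 to 1.55 CPM with LGK-974 and at 1.42 to 3.39 CPM with DMSO, and its log2 fold change of −0.52 was 0.03 without DMSO replicate 1.

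In classes 6 and 7 the groups overlapped in every semaphorin but Sema6c. Sema6a, a ligand of Plxna2 and Plxna4, was at 37.8, 36.9 and 43.5 CPM with LGK-974 and at 26.9, 28.6 and 55.1 CPM with DMSO. The treated mice lay inside the range of the controls (log2 fold change 0.09 ± 0.281, SE), and without DMSO replicate 3 the value was 0.61. Sema6d, a ligand of Plxna1, had a log2 fold change of 0.16 with a standard error of 0.149, and Sema6b one of −0.15 with 0.226. Without DMSO replicate 3 these values were 0.33 and −0.012. Sema6c was at 1.65, 1.27 and 1.27 CPM with LGK-974 and at 2.06, 2.40 and 3.10 CPM with DMSO, with all treated mice below all controls. Its log2 fold change was −0.85 ± 0.376 (SE) and −0.96 without DMSO replicate 1, in which its count was below the level of silent genes. With that level subtracted in each library it was −0.38 ± 1.36 (SE), and without DMSO replicate 3 it was −0.57. Sema7a, the lipid-anchored ligand of Plxnc1, was at 37.4, 29.4 and 36.8 CPM with LGK-974 and at 24.6, 35.2 and 34.4 CPM with DMSO. Its log2 fold change was 0.14 ± 0.19 (SE), and 0.01 without DMSO replicate 1.

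**Figure D5:**
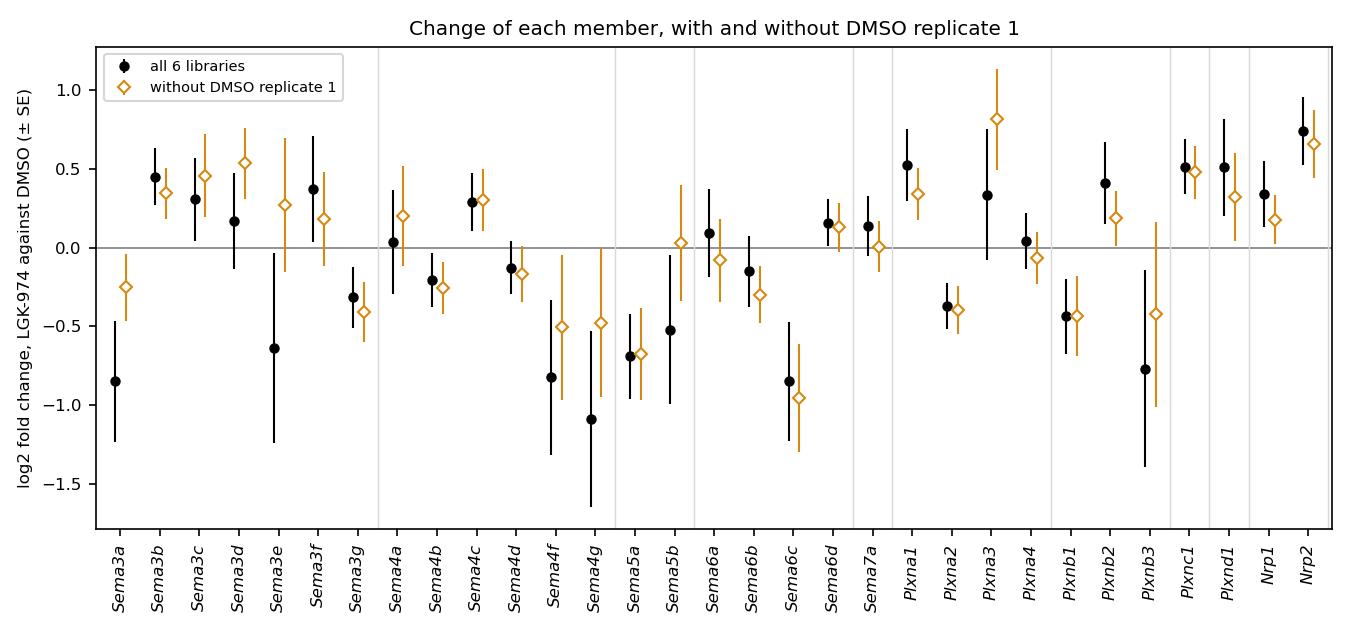
Log2 fold changes (LGK-974 over DMSO) with their standard errors for each member, with all 6 libraries (black) and without DMSO replicate 1 (orange). Nrp2, Plxnc1, Sema5a and Plxna2 keep values near those with all libraries (0.66, 0.48, −0.67 and −0.40 without it), while Sema3a goes from −0.85 to −0.25 and Sema3e from −0.64 to 0.27.

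Levels were compared between members per length, with the authors' TPM values summed per gene. TPM divides by the sum of each library, and so moves with its mitochondrial share, so the order was read within each library, and medians over libraries only describe it. Nrp1 had rank 1 or 2 by TPM in every library (median 29.8, range 13.7 to 57.5). Plxnd1 (median 20.6, range 13.7 to 60.1) and Plxnb2 (median 19.2, range 7.43 to 40.6) followed, and their ranges overlap with each other and with that of Nrp1. By counts per kb of all exons, Plxnb2 was at rank 1, Nrp1 at rank 2 and Plxnd1 at rank 4. Of the Plxnd1 TPM, 26.2 to 49.3% lay on its long coding transcript (Plxnd1-201), and much of the rest on retained-intron transcripts of 417 to 542 bases. Sema4d was at rank 4 by median TPM (18.4, range 12.0 to 31.1). However, 52.3 to 82.8% of its TPM lay on a transcript of 642 bases annotated as processed (Sema4d-208), and by counts per kb of all exons Sema4d was at rank 12. Nrp2 was at ranks 5, 5 and 4 in the LGK-974 libraries and at ranks 9, 7 and 7 in the DMSO libraries. Sema7a was at ranks 6, 7 and 7 with LGK-974 and at ranks 8, 5 and 5 with DMSO, so the order of this pair differed between libraries. Of the class 3 semaphorins, Sema3b had the highest median (6.80 TPM), and it was below its possible co-receptors Nrp1 and Nrp2 in all 6 libraries. The order within the class was not the same throughout: Sema3f was above Sema3b in LGK-974 replicate 3 (19.7 against 13.6 TPM), Sema3d and Sema3a were above it in DMSO replicate 1 (4.32 and 3.99 against 3.91 TPM), and by counts per kb Sema3g was at rank 10 and Sema3b at rank 11. At the low end, Plxnb3 was the lowest member in all 6 libraries (0.131 to 0.302 TPM).

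Signaling partners of the family were read from a list of 47 symbols, which named 46 genes, all measured and tested. Of these, 0 had an adjusted p-value under 0.05 by edgeR. At an unadjusted p-value under 0.05, 9 (19.6%) were higher with LGK-974, beside 6.26% of all genes tested. The partners lower at this p-value numbered 0, beside 7.18% of all genes tested. In either direction, the share of all genes was 13.4%. Without LGK-974 replicate 3, partners at this p-value numbered 4, beside 821 of 19694 genes tested. Among the 26 effectors below the plexins, 7 (26.9%) were higher. They were Cfl1, the actin-severing cofilin (log2 fold change 0.86 ± 0.245, SE), the kinases Pak1 (0.57) and Fes (0.66), the actin oxidase Mical2 (0.62), the CRMP proteins Dpysl2 (0.45) and Dpysl3 (0.69), and the Rac regulator Sh3bp1 (0.63). In all 7, the treated mice lay above all controls, as in 10.7% of all genes tested. The 7 were picked by their p-value in these same libraries, so this is not a separate result. Among 15 receptor partners, 2 (13.3%) were higher. They were Tyrobp, an adaptor that signals with Trem2 and plexin-A1 in myeloid cells (0.97), and Cd72, a receptor of Sema4d on B cells and some myeloid cells (0.80). The VEGF receptors Kdr and Flt1, which act with the neuropilins, had log2 fold changes of 0.27 and −0.25 with overlap between the groups. Of 5 other neuropilin ligands, the VEGF family, 0 had an unadjusted p-value under 0.05.

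All 11 leukocyte and macrophage markers had an unadjusted p-value under 0.05 and were higher in every LGK-974 mouse (607 to 734 CPM summed, against 267 to 395 CPM with DMSO). All 7 fibroblast markers had positive log2 fold changes, of which Col1a1, Col1a2 and Col3a1 (1.07 to 1.14) had an unadjusted p-value under 0.05, and the sum of the list is mostly these collagens (3069 to 5298 CPM, against 1545 to 2265 CPM). The groups overlapped in Pdgfra, Dcn and Lum, which among the LGK-974 libraries were lowest in replicate 3, where Nrp2 was highest. Col1a1, Col1a2 and Col3a1 were highest in that library, and Tcf21 was highest in LGK-974 replicate 2. The sum of the fibroblast list was highest in LGK-974 replicate 3 and lowest in DMSO replicate 1. Without DMSO replicate 1, the median log2 fold changes of these lists were 0.88 and 0.44, against 0.95 and 0.59 with it. Summed leukocyte markers were lowest in DMSO replicate 1 and highest in LGK-974 replicate 3, as was Nrp2, but single markers differed. Cd53, Laptm5, Csf1r, Lyz2 and Fcgr1 followed the sum. Cd68 was at 98.1, 81.6 and 71.7 CPM in LGK-974 replicates 1, 2 and 3, and Adgre1, Mrc1 and C1qa were not highest in LGK-974 replicate 3 either. Ptprc and Itgam were lowest in DMSO replicate 3. The 7 endothelial markers had a median log2 fold change of 0.03, and 0 had an unadjusted p-value under 0.05 (459 to 515 CPM summed, against 387 to 558 CPM). Of 9 cardiomyocyte markers, 7 were negative and 2 positive. At an unadjusted p-value under 0.05, 0 were lower and 2 were higher, Nppa (1.04) and Actc1 (0.86). In both, the treated mice lay above all controls. The part of these cell types in the values of Nrp2, Plxnc1, Plxna1 and the partners was not tested. In tissue, fewer cells of a type and less RNA per cell cannot be told apart.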

How the data were processed

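RNA of the infarct area was sequenced from 3 mice per group. Per the study's methods, total RNA was depleted of ribosomal RNA, a capture kit was used for the libraries, and Kallisto assigned reads to Ensembl transcripts of GRCm38. Its version and settings are not given in the sources used here. For 118489 transcripts per library, the authors deposited estimated counts and, beside them, values in TPM. Of these, 98.5% were joined to 35968 genes of GENCODE M21, over which the estimated counts were added up and then rounded.

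Genes with 10 counts or more in 3 or more libraries were tested with the quasi-likelihood test of edgeR 4.0.16 in R 4.3.3 (TMM, treatment only, Benjamini-Hochberg over all genes tested). DESeq2 1.42.0 and limma-voom (limma 3.58.1) were alternatives, beside other scalings, filters, counting units, a background subtraction, a replicate block and each mouse left out. Data were simulated with the spread of each gene fitted to all 6 libraries and given to each library alike. In these, edgeR recovered 55% of 200 genes with a simulated log2 change of 2 and 0% of 200 with 1, among 20076 genes. The fitted spread (edgeR's common dispersion) was 0.238 with DMSO replicate 1 and 0.0824 without it, and recovery without it was not simulated. P-values cover the spread between 3 mice per group. Counting error alone is small for the well-expressed members.

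The members and lists were chosen with earlier results of these data known. Named with values in every library were members with an unadjusted p-value under 0.05, members whose groups did not overlap, the member with the highest TPM of each subclass, and both neuropilins. Partners were named by an unadjusted p-value under 0.05 (at most 10), and Kdr and Flt1 were named after their values were seen. No exon of another gene in the files overlaps a member's exons. Antisense genes of the annotation that are not in the files overlap exons of Plxna1, Plxnb1 and Plxna4, and a transcript on the other strand those of Sema4c. On the same strand, Mir1903, Gm48718 and Mir7011, also absent, overlap 0.818, 1.38 and 1.35% of the exon length of Nrp1, Plxnc1 and Sema4a. Other steps used Python 3.11.15, pandas 2.3.3, SciPy 1.17.1 and matplotlib 3.10.9.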

Additional observations from a re-analysis of the deposited data

How the results depend on the processing

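Of 495 values of single members under 16 alternatives, 472 kept their direction, and 17 of the 31 members kept it throughout. On counts scaled from TPM, the log2 fold change was −0.50 for Plxna3, 0.061 for Plxnb1, −0.15 for Sema3c, −0.12 for Sema3d and −0.22 for Sema4a. On counts less background, it was 0.61 for Plxnb3, 0.45 for Sema3e, 0.41 for Sema4f, 0.50 for Sema4g, 1.42 for Sema5b and −0.015 for Sema7a. With a minimum of 50 counts it was −0.0016 for Plxna4 and −0.028 for Sema4a, and with no filter 0.010 for Sema4d. With 1 mouse left out, values ranged from −0.067 to 0.25 for Plxna4, −0.92 to 0.27 for Sema3e, −0.17 to 0.22 for Sema4a, −0.19 to 0.066 for Sema4d, −0.74 to 0.029 for Sema5b and −0.079 to 0.61 for Sema6a. The cause was not tested.

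With 1 mouse left out, members at an unadjusted p-value under 0.05 numbered 1 (Nrp2, without LGK-974 replicate 3) to 7, and 2 without LGK-974 replicate 1. Partners numbered 4 (without LGK-974 replicate 3) to 13. Over all genes tested, the numbers went from 821 of 19694 (without LGK-974 replicate 3) to 4624 of 19931 (without DMSO replicate 3). Members whose groups did not overlap numbered 11 to 16, against 9, since fewer libraries separate more easily. The share over all genes was not counted in these fits. Members past an adjusted p-value of 0.05 stayed at 0 in all alternatives. Over all genes, edgeR called 1210 without a filter and DESeq2 296, against 0.

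Subclass medians moved by more than the spread between mice in 18 of 160 cases. Without a filter they were 0.38 for class 3, −0.028 for class 4, 0.36 for class A plexins and 0.66 for the class C plexin. On counts scaled from TPM they were −0.15 for class 3, −0.19 for class A plexins, 0.061 for class B plexins and 0.13 for the class C plexin. On counts less background they were 0.44 for class 3, 0.36 for class 4, 0.34 for class 5, 0.32 for class A plexins, 0.27 for class B plexins and 0.89 for the class C plexin, and the median of all genes went from −0.13 to 0.02. With a minimum of 50 counts class B plexins were at −0.057. With 1 mouse left out, class 4 ranged from −0.21 to −0.012, class A plexins from 0.080 to 0.33 and class B plexins from −0.59 to −0.15.

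Mice with the same replicate number had correlated deviations in 2 of 3 pairs (0.475, −0.0485 and 0.391), so the numbers were not taken as pairs, and not every mouse correlated best with its own number. With the replicate number as a block, 5 members had an unadjusted p-value under 0.05, 3 of them shared with the fit without the block, and 0 an adjusted one, while genes at an unadjusted p-value under 0.05 went from 2698 to 3314.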

Other observations

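The 5 tested genes with values most like those of Nrp2 over the 6 libraries were Myl6, Umps, Shisa5, Nfkbiz and Actn4, with Pearson correlations of log2 CPM of 0.996 to 0.998. Among the members, Plxnc1 was most like Nrp2 at 0.968, followed by Sema6d at 0.911 and Plxna1 at 0.906. The correlations are over 6 libraries that share depth and tissue mixture, and are given as a description.

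By edgeR without adjustment, 1 of 5 tested neutrophil markers was lower at a p-value under 0.05, and 0 of the T cell, B cell, lymphatic endothelial, mural, Schwann cell and mesothelial markers passed. The neutrophil marker was Cxcr2, at 16.8, 12.4 and 12.0 CPM with LGK-974 and at 50.3, 16.6 and 17.2 CPM with DMSO. Its groups overlapped, and DMSO replicate 1 was far above the other libraries. With adjustment, 0 passed in any of these lists. Summed T cell markers were at 18.8 to 22.6 CPM with LGK-974 and 21.1 to 51.1 CPM with DMSO, with DMSO replicate 1 highest. Schwann cell and nerve markers were at 12.1 to 17.7 CPM and 16.3 to 28 CPM, and lymphatic endothelial markers at 79.0 to 136 CPM and 83.0 to 117 CPM. Summed mural cell markers were at 588 to 761 CPM and 580 to 909 CPM, B cell markers at 2.62 to 5.04 CPM and 2.16 to 9.13 CPM, and mesothelial and epicardial markers at 6.46 to 8.64 CPM and 7.39 to 15.4 CPM. Neutrophil markers were at 32.7 to 45.9 CPM and 40.3 to 79.2 CPM. All these ranges overlapped between the groups. The neutrophil marker Ly6g was at 0 counts in 3 libraries.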
